A study of Equus caballus with 10 samples.

Results

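The 37 gene identifiers with the highest numbers in a horse blood RNA-seq count table are described here, 37 of the 26991 Ensembl horse gene IDs in that table. They were taken by ordering the IDs by number, without use of any measured value, and they run without a gap from ENSECAG00000027666 to ENSECAG00000027702. Each is written below by the number at its end, so that ID 27699 stands for ENSECAG00000027699. Whole-blood RNA was counted in 10 Arabian horses. Untrained horses were 2.5 years old and comprised males 17, 50, 52 and 53 and females 49 and 51 (n = 6). Trained horses were in a racing training regime, were 3 years old and comprised males 21 and 33 and females 31 and 32 (n = 4). Every trained horse was older than every untrained one, and the effects of training and of age cannot be told apart. Each library came from a different animal. The labels give no other treatment, and the horses' numbers are those of the sample labels.

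The IDs were proposed as the genes of the mitochondrial genome, and that identity could not be established from the files. The mitochondrial genome of a mammal is a small circle that encodes protein subunits of the respiratory chain, the enzyme complexes that make most of a cell's ATP, together with the ribosomal and transfer RNAs needed to translate them. Its strands are read as long transcripts, which are cut at the transfer RNAs into separate messenger RNAs that then receive short poly(A) tails. In whole blood these transcripts come from leukocytes and platelets, while mature red cells lack mitochondria. The RefSeq gene table for the horse assembly TB-T2T lists 37 genes on the mitochondrial chromosome, namely 13 protein-coding, 22 transfer RNA and 2 ribosomal RNA genes, so the number of IDs was set to that number by the choice itself. That table holds 0 Ensembl horse gene IDs, so it named 0 of the 37, and none is given a symbol, a length, a position or a sequence here. A list of nuclear respiratory-chain and mitochondrial expression genes and lists of blood cell markers could not be applied for the same reason.

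Of the 37 IDs, 36 (97.3%) had a count in at least 1 library, against 4213 (15.6%) of all gene IDs. The 142 IDs directly below them, starting with ID 27665, had no count in any horse. The next lower ID with counts was ID 27523, with 98 to 182 counts per library and a mean share of 0.121% of a library. ID 27666, the lowest number in the set, had 16 to 46 counts. ID 27686 had no count in any horse, which allows a share of up to 0.00232% to 0.00423% of a library (3 counts of the total, counting error only).

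Library totals ran from 70899 counts in trained horse 33 to 129195 in untrained horse 53. Trained males 21 and 33 stood apart from the other libraries: they had the fewest genes with a count, 1956 and 1762 against 2113 to 2384, and the lowest TMM scaling factors, 0.824 and 0.922 against 0.976 to 1.09. For some IDs, fold changes are given with and without both. Levels below are in CPM, a count scaled to a common library size, here taken from the counts of the 968 genes tested and from TMM factors, which correct for differences in the make-up of libraries. They are not divided by gene length, so an order of IDs by CPM or by share is one of counts and not of transcript numbers.

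The 37 IDs held between 9.54% and 19.8% of all counts of a library, from rows that are 0.137% of the gene IDs. In untrained horses the summed share was 15.8% in horse 17, 12.5% in horse 49, 10.6% in horse 50, 9.54% in horse 51, 15.4% in horse 52 and 19.8% in horse 53. In trained horses it was 11.9% in horse 21, 12.2% in horse 31, 13.0% in horse 32 and 14.8% in horse 33. The Wilson 95% intervals of these shares reached at most 0.262 percentage points to either side, so the differences among untrained horses are far wider than counting error. The highest and the lowest values both belonged to untrained horses, and the trained horses lay between them. The group means were 13.9% ± 3.81 (SD, n = 6) untrained and 13.0% ± 1.30 (SD, n = 4) trained, a difference of -0.942 percentage points that is smaller than the spread within the untrained group. The direction was the opposite, at 0.238 points, without horse 53, and also, at 0.316 points, when shares were taken of the TMM-scaled library sizes. Without trained horses 21 and 33 the difference was -1.32 points. In bulk blood, a different number of cells of a type and a different amount of RNA per cell cannot be told apart.

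**Figure D1:**
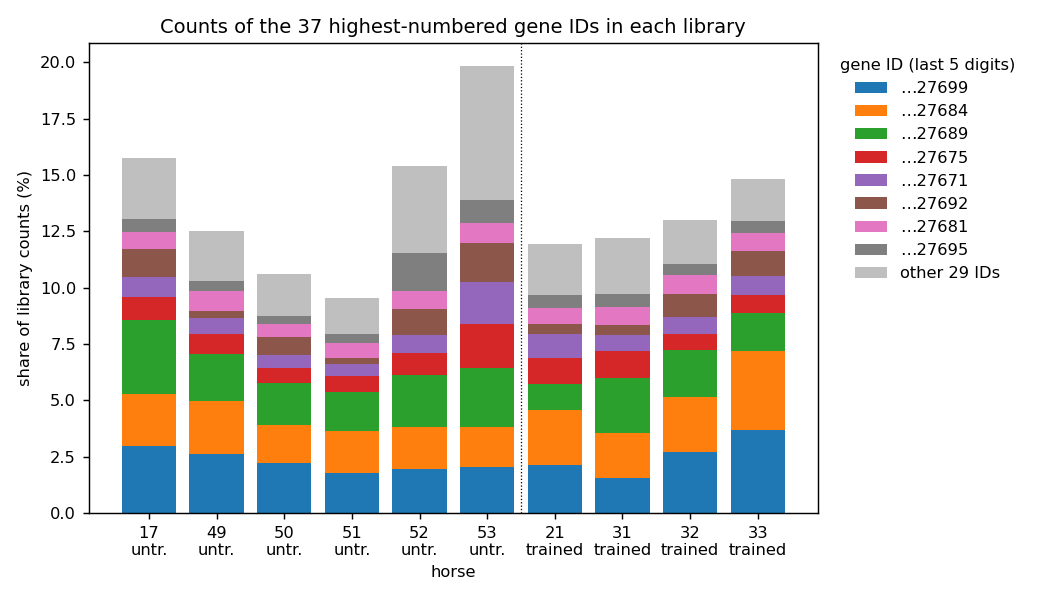
Stacked bars give the share of each library's counts (%, vertical axis) held by the 8 most abundant of the 37 IDs and by the other 29 together, for 6 untrained and 4 trained horses. Horse 53 has the tallest bar at 19.8%. Its light grey, red, purple, brown and pink segments are taller than in any other horse, while those of IDs 27699 and 27684 are not.

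Counts were concentrated in few of the IDs. The 3 most abundant took 6.72% of a library on average, the 10 most abundant 11.7%, and all of them 13.6%. IDs 27699, 27684 and 27689 averaged 2.37% ± 0.632, 2.23% ± 0.535 and 2.13% ± 0.591 of a library (SD, n = 10), and ID 27699 was the 5th most abundant row of the table. Another 11 IDs averaged 0.205% to 0.996%, led by ID 27675 (0.996% ± 0.380), ID 27671 (0.883% ± 0.374), ID 27692 (0.847% ± 0.469), ID 27681 (0.772% ± 0.105) and ID 27695 (0.668% ± 0.404). The remaining 23 lay under 0.2%, and 15 of the 37 were among the 100 most abundant rows. A count was seen in all 10 horses for 28 IDs. The test below needed at least 10 counts in enough libraries, which 27 of the 37 IDs passed. The 10 that did not pass were IDs 27668, 27670, 27682, 27683, 27686, 27690, 27696, 27697, 27700 and 27701.

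The make-up of the sum differed between horses. The 3 most abundant IDs held 54.2% to 56.5% of the summed counts in untrained horses 17, 49, 50 and 51, but 39.9% in horse 52 and 32.5% in horse 53. In trained horses they held 48.1% (horse 21), 49.1% (horse 31), 55.7% (horse 32) and 59.8% (horse 33). Horse 53 thus had the largest sum and the smallest part of it in the leading IDs. ID 27699 itself was at 2.04% of the library of horse 53, against 1.76% to 2.97% in the other untrained horses.

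The values of the more abundant IDs were spread widely between horses. Over the 17 IDs with a mean of at least 100 counts, the coefficient of variation of CPM over 10 horses had a median of 46.2%, against 20.6% for 151 other genes above the same mean. The steadiest of them was ID 27681, at 16.2%, with 5339 to 9760 CPM in untrained and 8018 to 8976 CPM in trained horses. The most variable was ID 27685, at 133%. The median ratio of the highest to the lowest horse was 3.73 for these IDs and 1.86 for the other genes. Members share libraries and scaling, so these medians describe the set and carry no test.

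They did not vary as a single block. Pearson's r of log2 CPM over the 10 horses had a median of 0.28 over the 351 pairs of the 27 tested IDs, and ran from -0.74 (IDs 27684 and 27698) to 0.95 (IDs 27672 and 27675). Spearman's rho had a median of 0.33. Over all 468028 pairs of genes tested the median r was -0.0023, and 1.78% of pairs were above 0.8, against 9.12% (32 pairs) among the IDs. For the 17 IDs with a mean of at least 100 counts the median r was 0.35, with 18.4% of pairs above 0.8. Over all 168 genes with such a mean, these IDs included, the median r was 0.051, with 3.91% above 0.8. With library totals in place of TMM factors the median r was 0.27 for the 27 IDs and 0.075 for all genes tested. With the group means subtracted, so that training could not add to it, the median over the IDs was 0.32. It was 0.19 without horse 53 and 0.42 without trained horses 21 and 33. All pairs come from the same libraries and share their depth and scaling, so these are descriptions and no p is given.

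Average-linkage clustering of the correlations, with a distance limit of 0.5 and chosen after the values were seen, split the 27 IDs into 7 groups. The groups were formed from these correlations, so a high r and a shared highest horse within a group follow in part from the grouping. The largest group held 10 IDs (27669, 27671, 27672, 27675, 27676, 27679, 27681, 27687, 27691 and 27694), with a median r of 0.78, and all 10 were highest in untrained horse 53. The next held 7 (27673, 27674, 27677, 27678, 27689, 27698 and 27702), with a median r of 0.75. Of these, 6 were highest in untrained horse 17, and on average they were lowest in trained horse 21, by -0.67 from their mean on the log2 scale. IDs 27684, 27688 and 27699 formed a further group, with a median r of 0.80 and an average highest in trained horse 33, at 0.75 above their mean log2 CPM. IDs 27685 and 27695 were both highest in untrained horse 52. IDs 27692 and 27693 paired at r = 0.68, IDs 27666 and 27680 at 0.66, and ID 27667 stood alone. Different sets of IDs had their highest values in different horses.

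**Figure D2:**
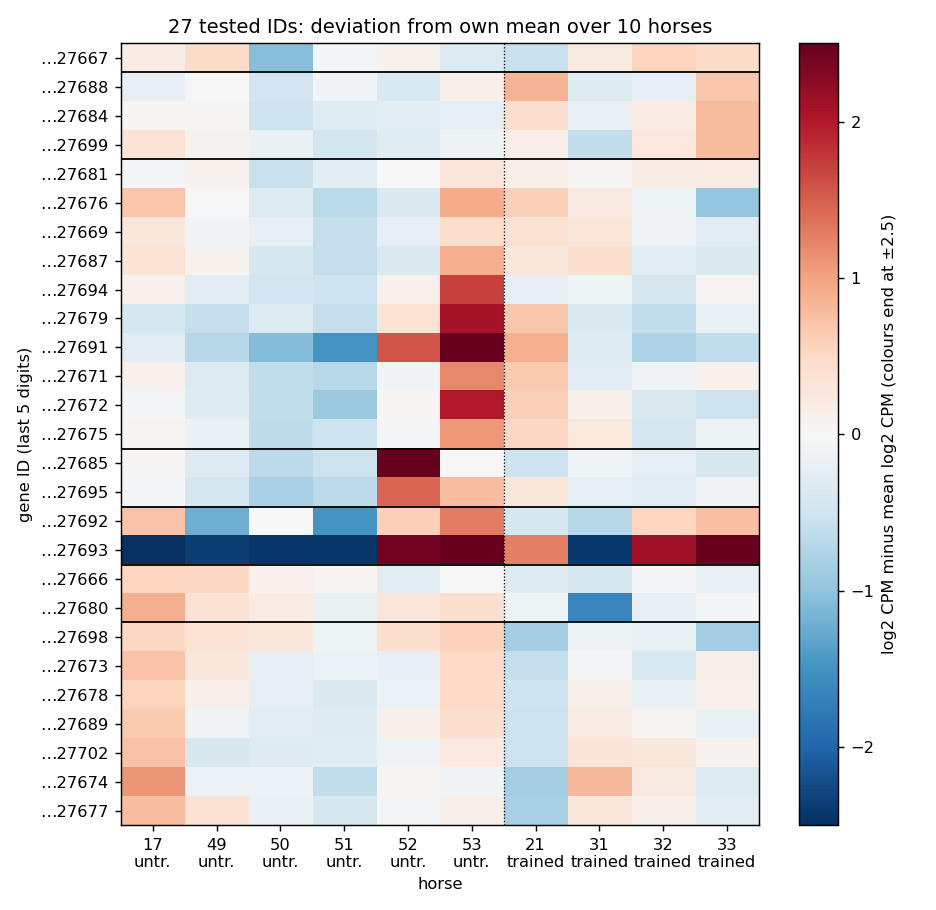
Each row is 1 of the 27 tested IDs and each column a horse, and the colour is log2 CPM minus the ID's mean log2 CPM over 10 horses, with colours ending at ±2.5. Black lines separate the 7 groups of the clustering. The group of 10 is red in horse 53, the group of 7 in horse 17, and ID 27693 splits the horses 5 against 5.

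Horse 53 led more of the IDs than any other horse. Of the 36 IDs with counts, 20 had their highest CPM in horse 53, 9 in horse 17, and at most 2 in any other horse. Among all 968 genes tested, 8.88% were highest in horse 53, while 13 of the 27 tested IDs (48.1%) were. Set against the median of the other 5 untrained horses, horse 53 was higher by more than 1 on the log2(CPM + 1) scale in 11 of 27 IDs (40.7%) and in 18 of 968 genes (1.86%). The 968 genes include the 27 IDs. ID 27671 had 5277 to 9199 CPM in the other untrained horses and 19685 CPM in horse 53. Its trained values were 13572 CPM in horse 21, 7126 in horse 31, 8108 in horse 32 and 9289 in horse 33, inside the untrained range. ID 27672 reached 15621 CPM in horse 53, where the next untrained horse had 4034 CPM, and trained horses had 2710 to 5899 CPM. ID 27679 reached 13156 CPM, with 3969 CPM in the next untrained horse and 2025 to 4983 CPM in trained horses. ID 27675 stood at 20748 CPM in horse 53 and at 6319 to 10239 CPM in the other untrained horses. In trained horses it was highest in horse 21, at 13980 CPM, and lowest in horse 32, at 7261 CPM. In these 4 IDs horse 53 was above every other horse, and trained horse 21 was second.

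A set of rare IDs had almost all of their counts in 3 horses. Among the 35 IDs with at least 10 counts in all, 7 had at least 80% of them in untrained horses 52 and 53 and trained horse 21, which hold 32.7% of all counts of the series. The horses and the limit of 80% were chosen after the values were seen. These 7 IDs summed to 385 counts in horse 53, 62 in horse 21 and 43 in horse 52, and to 4 in the other 7 horses together (1 in horse 17, 2 in horse 50 and 1 in horse 51). ID 27701 had 180, 27 and 18 counts in horses 53, 21 and 52, and ID 27696 had 118, 19 and 16. ID 27697 had 43, 7 and 5 counts, and was not seen in the other 7 horses, where 3 counts would be up to 0.00423% of a library. IDs 27668, 27682, 27690 and 27700 had 8 to 14 counts in horse 53. The most abundant of them had like proportions in the 3 horses. ID 27701 made up 46.8% of the 7 IDs' counts in horse 53, 43.5% in horse 21 and 41.9% in horse 52, and ID 27696 30.6%, 30.6% and 37.2%. ID 27682 did not, with 11.3% in horse 21 and 2.08% in horse 53. All 3 horses were males, and males 17, 33 and 50 had 1, 0 and 2 counts of the 7 IDs. Of the other 1773 gene IDs with at least 10 counts, 5 met the same limit. Those 5 summed to 163 counts in horse 53, 38 in horse 52, 18 in horse 21 and 9 in the other 7 horses together. Library totals, at 129195, 122109 and 112783 counts, and the numbers of genes with a count, at 2384, 2224 and 1956, did not set the 3 horses apart together. The source of these counts was not tested.

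**Figure D3:**
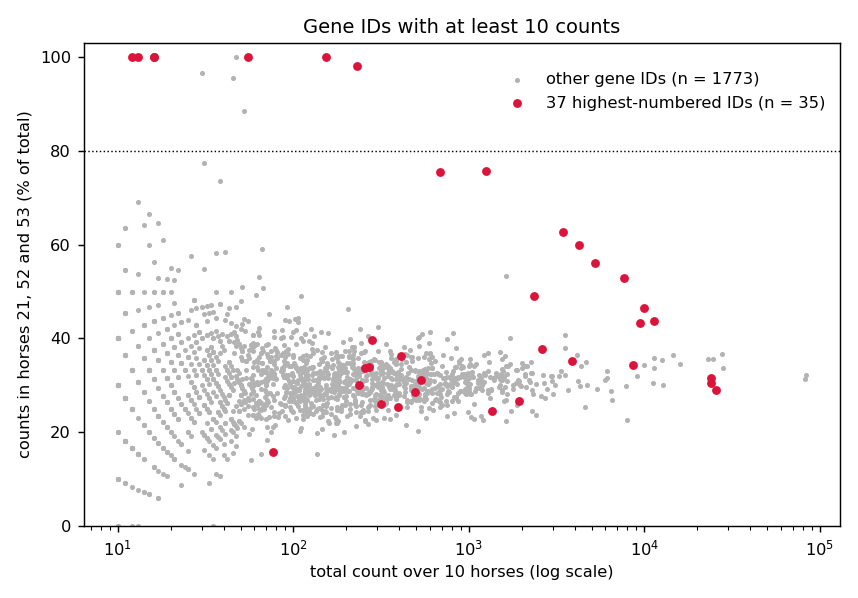
Each point is a gene ID with at least 10 counts, with its total count over 10 horses on a log axis and the percent of that total found in horses 21, 52 and 53 on the vertical axis. Red points are 35 of the 37 highest-numbered IDs and grey points 1773 other IDs; 7 red and 5 grey points, some of them overlying each other, lie above the dotted line at 80%.

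ID 27693 separated the horses in another way. It had at most 2 counts in 5 horses (17, 49, 50, 51 and trained horse 31) and at least 39 in the other 5. The high horses were untrained 52 and 53, with 122 and 352 counts, and trained 21, 32 and 33, with 39, 82 and 76 counts. Both groups therefore held high and low horses, and ID 27693 was seen at 9.29 to 2902 CPM in untrained and 16.8 to 1190.5 CPM in trained horses. ID 27692, grouped with it by the clustering, ranged less, from 2622 to 18168 CPM in untrained and from 4518 to 12500 CPM in trained horses. Its lowest untrained values, 2622 and 3184 CPM, were those of the females 51 and 49. Among trained horses female 31 was lowest, followed by male 21 at 5458 CPM, while female 32 had 10736 CPM.

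The comparison of trained with untrained horses gave no ID past the threshold. Of the 27 IDs tested, 0 passed the threshold of 0.05 on the adjusted p from edgeR (quasi-likelihood, over all 968 genes), where 2.58% of all genes tested were called (25 genes). At an unadjusted p under 0.05 there were 3 IDs, 1 higher and 2 lower in trained horses, against 25.7% of all genes tested. Limma voom called 0 of 27 IDs, against 7.95% of genes. DESeq2 called 1 (ID 27684, higher) of the 27 to which it gave an adjusted p, against 6.36% of genes. These were not the same 27 IDs, as DESeq2 gave ID 27685 no adjusted p. The log2 fold changes ran from -1.17 to 0.55 with a median of -0.18, and 9 were above and 18 below 0, while over all genes tested the median was 0.00 and 485 of 968 were above 0. With sex as a covariate the median of the IDs was -0.059, with 13 above and 14 below 0. With limma voom it was -0.037, with 11 above and 16 below 0. Among fits with 1 horse left out, the direction of that median changed only without horse 53. Without horse 53 it was 0.15, with 16 IDs above and 11 below 0, and again 0 IDs were called, against 1.68% of genes. With library totals in place of TMM factors the median of all genes moved to -0.15, and that of the IDs to -0.29, with 5 above and 22 below 0.

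**Figure D4:**
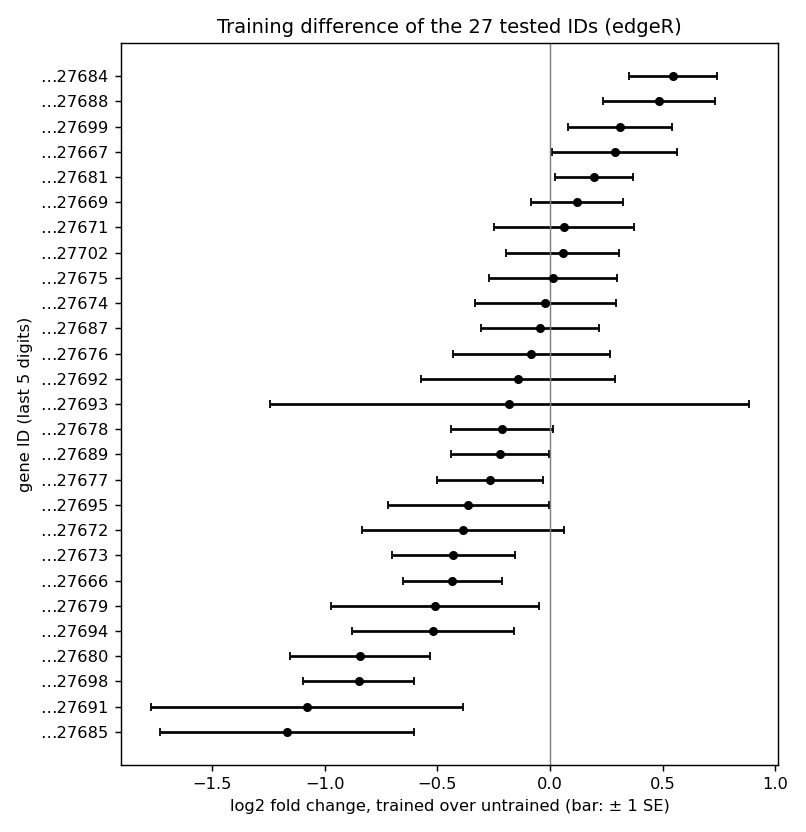
Points give the log2 fold change of trained over untrained horses for each of the 27 tested IDs, and bars ± 1 SE (edgeR, 6 against 4 horses). ID 27684 is the highest at 0.55 and ID 27685 the lowest at -1.17, and the bars of IDs 27691 and 27693 are the widest.

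ID 27698 had the smallest p of the set and was lower in trained horses, short of the threshold. It had 24, 31, 32, 34, 36 and 40 counts in untrained horses 51, 49, 50, 17, 52 and 53, and 10, 23, 19 and 7 in trained horses 21, 31, 32 and 33. In CPM the untrained horses ran from 196 to 330 with a median of 284, and trained horses 21, 31, 32 and 33 had 110.3, 194, 185 and 109.6 CPM. The groups did not overlap, though horses 51 and 31 were next to each other at 24 and 23 counts. It was the only ID of the 27 without overlap (3.70%), against 7.23% of all genes tested. Means were 279 ± 47.4 CPM (SD, n = 6) and 149.6 ± 45.9 CPM (SD, n = 4), with -0.85 on the log2 scale between them (SE 0.247, edgeR adjusted p = 0.0563). The value was -0.56 without trained horses 21 and 33. Without horse 31 the edgeR adjusted p was 0.0372, in a fit that called 9.71% of genes.

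ID 27684 had the largest positive value. Trained horses 21, 31, 32 and 33 had 30033, 19721, 26085 and 39004 CPM, and untrained horses 15777 to 23276 CPM with a median of 18840. Of the trained horses, 3 lay above all untrained horses and horse 31 lay among them. Means were 19665 ± 2908 CPM (SD, n = 6) and 28711 ± 8071 CPM (SD, n = 4), and the log2 difference of 0.55 had an SE of 0.195 (edgeR adjusted p = 0.106). DESeq2 gave 0.57 (adjusted p = 0.0498). The log2 difference was 0.35 without horse 33 and 0.21 without trained males 21 and 33, and rose to 0.71 without horse 31 (edgeR adjusted p = 0.0320). Before scaling, the counts of ID 27684 per library lay between 1915 and 2579 in untrained and between 2344 and 2724 in trained horses. Horses 21 and 32 were above all untrained horses. Those counts are not divided by depth. As a share of all counts, ID 27684 was at 1.67% to 2.37% in untrained horses. In trained horses 21, 31, 32 and 33 that share was 2.42%, 1.99%, 2.47% and 3.51%. With library totals in place of TMM factors the log2 difference was 0.38 (edgeR adjusted p = 0.177). The scaled library sizes were 90699 and 63840 in horses 21 and 33 against 102740 to 123198 in the others.

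ID 27699, with the highest mean share, had 15464 CPM in trained horse 31 and 26726, 28450 and 40758 CPM in horses 21, 32 and 33. Untrained horses had 17196 to 30179.5 CPM with a median of 21467, so the groups overlapped. On the log2 scale trained over untrained was 0.31, with an SE of 0.231 (edgeR adjusted p = 0.411), with 0.053 without horse 33, 0.52 without horse 31 and -0.040 without horses 21 and 33. ID 27689 had 14554, 24348, 21987 and 18672 CPM in trained horses 21, 31, 32 and 33, and 17017 to 33645 CPM in untrained horses with a median of 21519. The log2 difference was -0.22, with an SE of 0.218 (edgeR adjusted p = 0.547). It was -0.085 without untrained horse 17, -0.10 without horse 21 and -0.0071 without horses 21 and 33. The 3 most abundant IDs thus overlapped between the groups, and horse 21 was high for ID 27684 and lowest of all horses for ID 27689.

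ID 27685 was the one ID that the authors' deposited table called. That table lists 36 of the 37 IDs and called 1 of them, against 0.249% of its rows, giving untrained horses a mean of 399 normalized counts, trained horses a mean of 179, and an adjusted p of 0.0411. In CPM, untrained horses had 1326, 1446, 1672, 2102 and 2165 CPM, and horse 52 had 14278 CPM. Trained horses had 1466, 1969, 1791 and 1598 CPM, all inside the range of the other 5 untrained horses. The log2 difference of -1.17 had an SE of 0.563 (edgeR adjusted p = 0.20), and was -0.031 without horse 52. DESeq2 gave ID 27685 a log2 difference of -1.16 with an SE of 0.731, and no adjusted p. Its partner ID 27695 was also highest in horse 52, at 16924 CPM, followed by horse 53 at 10576 CPM. The other untrained horses had 3526 to 6030 CPM of ID 27695 and trained horses 5032 to 7464 CPM. The log2 difference was -0.36, with an SE of 0.357 (edgeR adjusted p = 0.547), and 0.043 without horse 52.

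**Figure D5:**
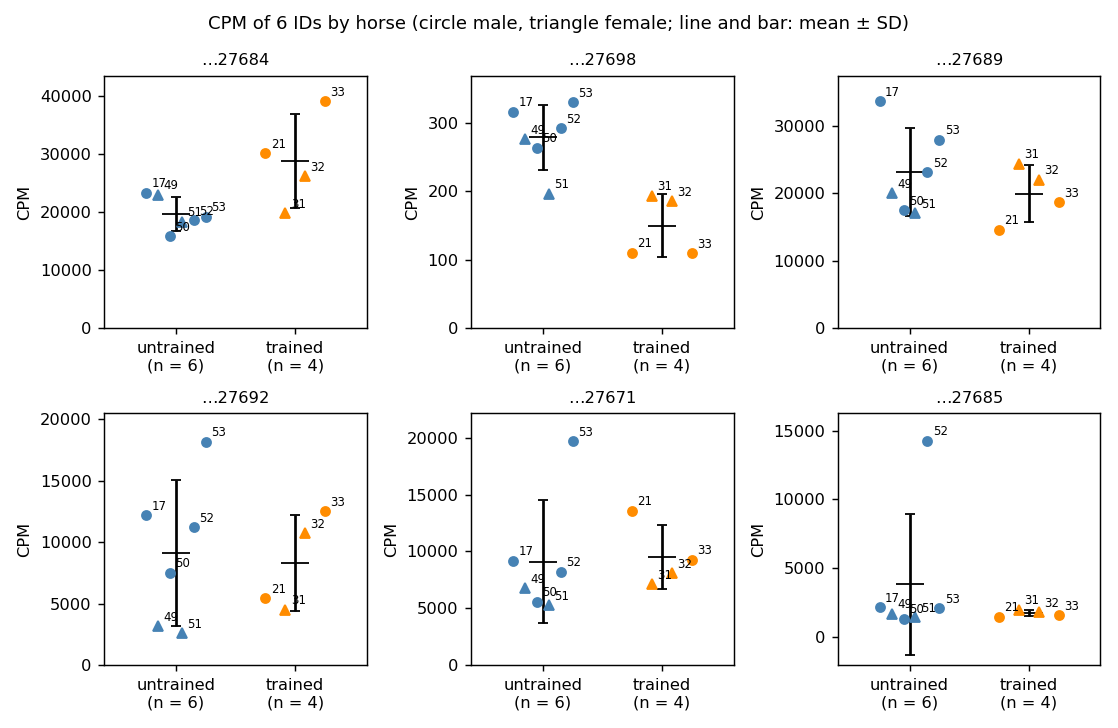
CPM of 6 IDs in each horse, with untrained horses in blue and trained horses in orange, males as circles, females as triangles, and the group mean ± SD as a line and bar. ID 27698 shows groups that do not overlap, ID 27685 shows horse 52 at 14278 CPM above all others, and ID 27671 shows horse 53 at 19685 CPM.

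ID 27680 and 6 others of low abundance, and ID 27691 with a mean of 125.9 counts, had groups that overlapped. Their SEs were 0.221 to 0.692 on the log2 scale, the largest being that of ID 27691. ID 27680 was at 196 to 437 CPM in untrained horses. Trained horses 21, 32 and 33 had 209, 195 and 219 CPM, and horse 31 had 58.9 CPM. Its log2 fold change of -0.84 had an SE of 0.311 (edgeR adjusted p = 0.115). That value was -0.50 without horse 31 and -1.25 without trained horses 21 and 33. ID 27691 had 4814 CPM in horse 53, 2062 in horse 52 and 1279 in horse 21, and 229 to 567 CPM in the other 7 horses. Its log2 fold change of -1.08 had an SE of 0.692 (edgeR adjusted p = 0.336), and was -0.12 without horse 53. Without trained horses 21 and 33 the value was -1.59. The other 6 tested IDs with totals between 237 and 494 counts (IDs 27673, 27676, 27666, 27667, 27688 and 27702) had log2 fold changes of -0.43 to 0.48, and their groups overlapped. Without a filter on low counts edgeR called 4 of 36 IDs, all lower in trained horses (27685, 27691, 27696 and 27701), against 1.80% of 4213 genes. In that fit a gene's own variance carried no weight, and each of the 4 had its highest value in horse 52 or 53.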

How the data were processed

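Members, lists and tests were chosen with earlier results of these data known. The deposited table holds whole-number counts per gene, not normalized, for 26991 gene IDs and 555 repeat element rows without a count. The submitters' processing notes list FastQC, STAR, RSEM and DESeq without versions or roles. Per the labels' protocols, the TruSeq RNA Kit v2, a poly(A) capture kit, was used for libraries, and per the series' design text reads were single-end, 75 bases, in 6 technical repetitions. The sources used here do not say how these were combined, nor give a genome build, annotation or strandedness, so reads shared with overlapping genes or near-identical copies cannot be told apart. Another table, the authors' deposited comparison, gives a mean per group (a signal: counts divided by size factors), their ratio (fold), its log2 and p-values. Its group means were recomputed within 6.37e-12, which settled which group each is.

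Genes were tested with edgeR 4.0.16 in R 4.3.3 (quasi-likelihood F test, two-sided, TMM, filterByExpr with a minimum count of 10 and total of 15, no covariate), with Benjamini-Hochberg adjustment over 968 genes holding 96.8% of counts and a threshold of 0.05; the script was tested on simulated counts. Standard errors came from the F statistic. Log2 CPM used a prior count of 2. Alternatives were RLE factors, library totals, scaling without the 37 IDs, no filter, a filter of 10 CPM in at least 4 libraries, DESeq2 1.42.0, limma 3.58.1 voom with sample weights, sex as a covariate, a threshold of 0.1 and horses left out. No library was treated as a duplicate, since the chi-square statistic over its degrees of freedom was 2.41 to 10.5 in the 21 within-group pairs. The IDs named are the 10 IDs of highest mean share, IDs past the threshold or without overlap, and up to 6 IDs with a horse far from its group. IDs 27680, 27685, 27691 and 27693 were added after their values were seen. Intervals cover counting error only.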

Additional observations from a re-analysis of the deposited data

Results flagged for a closer look

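In each group the horse farthest from the others was examined, and its gap to the nearest horse was compared with the group's range by Dixon's 95% limits (chance passes about 5% of groups). Among tested IDs 10 of 54 sets of CPM values passed (18.5%), against 6.66% of 1936 sets over all genes tested. Another 14 passes came from rare IDs whose other horses in the group had 0 to 18 counts. Where all the others are at 0 the ratio is at its maximum by construction, and the chance rate means little for these IDs. Many of the sets share a horse, so the passes are not independent.

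In untrained horse 53 the values were 19685 CPM for ID 27671, 15621 for ID 27672, 20748 for ID 27675, 13156 for ID 27679, 6232 for ID 27694 and 2902 for ID 27693. Among rare IDs horse 53 stood at 1484 CPM for ID 27701, 973 for ID 27696, 354 for ID 27697, 115 for ID 27690, 90.7 for each of IDs 27668 and 27700, 65.9 for ID 27682 and 16.5 for ID 27683, the last from 2 counts. Untrained horse 52 was apart at 14278 CPM for ID 27685, and untrained horse 17 at 2453 CPM for ID 27674.

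In trained horse 21 the values were 1279 CPM for ID 27691, 298 for ID 27701, 209 for ID 27696 and 77.2 for each of IDs 27682 and 27697. IDs 27690 and 27700 stood at 11.0 CPM there, which is 1 count each. Trained horse 31 was low, at 58.9 CPM, for ID 27680.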

How the results depend on the processing

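No paired analysis was possible because the horses' numbers do not pair the groups. The difference in summed share, -0.942 points, ran from -1.82 to 0.238 points with 1 horse left out and was 0.316 points on TMM-scaled library sizes, so its sign was not fixed. The median correlation, 0.28, ran from 0.19 without horse 53 to 0.42 without horses 21 and 33. The count of IDs called, 0, became 4 without a filter, 1 with DESeq2 and 1 at an adjusted p under 0.1 (ID 27698, against 10.7% of genes), and 0 to 2 with 1 horse left out; the 2 came without trained horse 31 (IDs 27684 and 27698, against 9.71% of genes). The count over all genes, 25, became 76 without a filter, 60 with DESeq2, 77 with limma voom, 104 at an adjusted p under 0.1 and 2 without trained horses 21 and 33, and with 1 horse left out it ran from 1 (horse 33) to 97 (horse 31). Leaving out horse 17 gave 86, horse 32 gave 2, horse 21 gave 7, horse 50 gave 9, horse 52 gave 14 and horse 53 gave 16.

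Of the 10 IDs of highest mean share and ID 27693, 8 log2 fold changes changed sign, among them values of -0.36 (ID 27695), -0.39 (ID 27672) and -0.51 (ID 27679). With library totals ID 27671 came to -0.092 and ID 27675 to -0.13. Without horses 21 and 33 they came to -0.26 and -0.14, and ID 27699 to -0.040. In the same fit ID 27679 came to -0.96 and ID 27693 to -0.74. With limma voom ID 27675 came to -0.036, ID 27692 to 0.36 and ID 27693 to 1.91, and with sex as a covariate the last pair came to 0.36 and 0.83. With 1 horse left out the values ran from -0.16 to 0.44 for ID 27671, -0.65 to 0.35 for ID 27672, -0.16 to 0.33 for ID 27675, -0.86 to 0.24 for ID 27679, -0.42 to 0.17 for ID 27692, -0.70 to 1.44 for ID 27693 and -0.50 to 0.043 for ID 27695. The cause was not tested.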
